A study of Mus musculus with 6 samples.

Results

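The Wnt genes described here comprise the secreted Wnt ligands, their receptors and co-receptors, the R-spondins, the antagonists of the pathway, and β-catenin with its TCF/LEF partners. They were selected by their names, not by their values in a test, from a list of families drawn up with earlier results of these data known, as all symbols of the Wnt, Fzd, Rspo, Sfrp, Dkk, Axin, Nkd and Ror families together with Lrp5, Lrp6, Ryk, Wif1, Notum, Apcdd1, Ctnnb1, Lef1 and the Tcf7 genes, which gave 58 of the 55341 symbols in the count tables. The 6 libraries came from cerebellar granule neurons (CGNs) in culture, and 3 had received the vehicle DMSO and 3 GSK-126, a small molecule that inhibits EZH2. EZH2 is the methyltransferase that makes H3K27me3, the trimethylated form of a lysine in histone H3 that marks repressed promoters, and the comparison asks how transcript levels in postmitotic neurons depend on it. By the study's methods, the neurons came from cerebella of early postnatal CD1-IGS mice, cerebella of litters were pooled for a replicate, and all cultures received cytosine arabinoside against dividing cells on the second day. Neither the dose nor the day of treatment is in the labels, which name the agent and number the replicates. The methods describe a single addition on the first or the third day and harvest on the fifth day, and the labels do not say which applies. No genetic change was described in either group.

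Wnt proteins are lipid-modified signals that bind Frizzled receptors together with the co-receptors LRP5 and LRP6. Binding holds back the complex that destroys β-catenin, which then enters the nucleus and activates genes with TCF/LEF factors. Wnts that act through ROR and RYK receptors or through planar cell polarity do not need β-catenin. In the cerebellum, granule neurons are a source of Wnt7a, which remodels the mossy fibre axons that contact them. Promoters rich in CpG are among the sites that often carry H3K27me3 in mammalian genomes. The paper found the mark in gene bodies and intergenic regions too.

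A gene was tested where it had at least 1 CPM (counts relative to library size, before scaling with TMM factors) in at least 3 of the 6 libraries. This left 44 of the 58 Wnt genes and 16685 genes in all. The CPM levels given for genes are scaled with TMM factors. Of the 44, 40 reached 1 CPM in all 6 libraries. The other 4, Wnt6, Wif1, Rspo1 and Lef1, did so with libraries of both groups. Of the 14 that were not tested, Fzd6, Wnt8b, Dkk1 and Dkk4 had a count of 0 in every library. Where a 0 comes from sampling alone, it allows up to 0.372 CPM in the shallowest library. Whether counting or annotation made any of these 0 was not tested. Just outside the limit were Sfrp2 and Notum with 2 libraries each and Wnt3a and Sfrp5 with 1 each. The libraries held between 8058760 and 12047837 counts over genes, and GSK-126 replicate 1 was the deepest.

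Marker genes of granule neurons were present in every library, with a summed level of 4040 to 6070 CPM with DMSO and 2905 to 4543 CPM with GSK-126, lower in 3 of 3 pairs. Of these 10 markers 6 fell under GSK-126. The cultures also held transcripts of other cells. The 10 markers of astrocytes and Bergmann glia summed to between 2720 and 7877 CPM with DMSO and between 2716 and 8131 CPM with GSK-126, and those of fibroblasts and meninges to between 6911 and 8923 CPM with DMSO and between 8921 and 9967 CPM with GSK-126, higher in 3 of 3 pairs. Of the 10 fibroblast and meninges markers Col1a1, a fibrillar collagen, rose (0.46, adjusted p in edgeR 0.0327) and Slc6a13, a GABA transporter of the meninges, fell (-1.10, adjusted p in edgeR 0.0143). The microglial marker Trem2 was at 0 throughout, while the other 9 microglial markers were detected.

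Ranked by CPM per kilobase of annotated exon, the scale used below wherever genes are compared, β-catenin led and ligands, antagonists and receptors followed across a wide range. Ctnnb1, which encodes β-catenin, had the highest mean level of the 58 genes (139 ± 29.2, SD, n = 3), whereas the TCF/LEF factor Lef1 had a mean of 0.128 ± 0.0768. Among the Frizzled receptors Fzd7 (26.1 ± 2.20), Fzd2 (21 ± 4.34), Fzd1 (18.5 ± 3.95) and Fzd3 (16.5 ± 5.88) led, and neighbours in this order differed by less than the sum of their SDs. Ryk, a receptor of another family, stood at 17.9 ± 1.68, between Fzd1 and Fzd3, and with the longest transcript as length it had 26.4, level with Fzd7. The co-receptor Lrp6 (9.25 ± 0.824) exceeded Lrp5 (4.30 ± 1.13). Of the ligands, Wnt7a (12.2 ± 3.76) and Wnt5a (8.01 ± 2.48) came first and did not differ beyond their spread. Of the antagonists, the intracellular Nkd1 (17.6 ± 0.634) and the secreted Dkk3 (17.6 ± 3.43) came first.

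**Figure D1:**
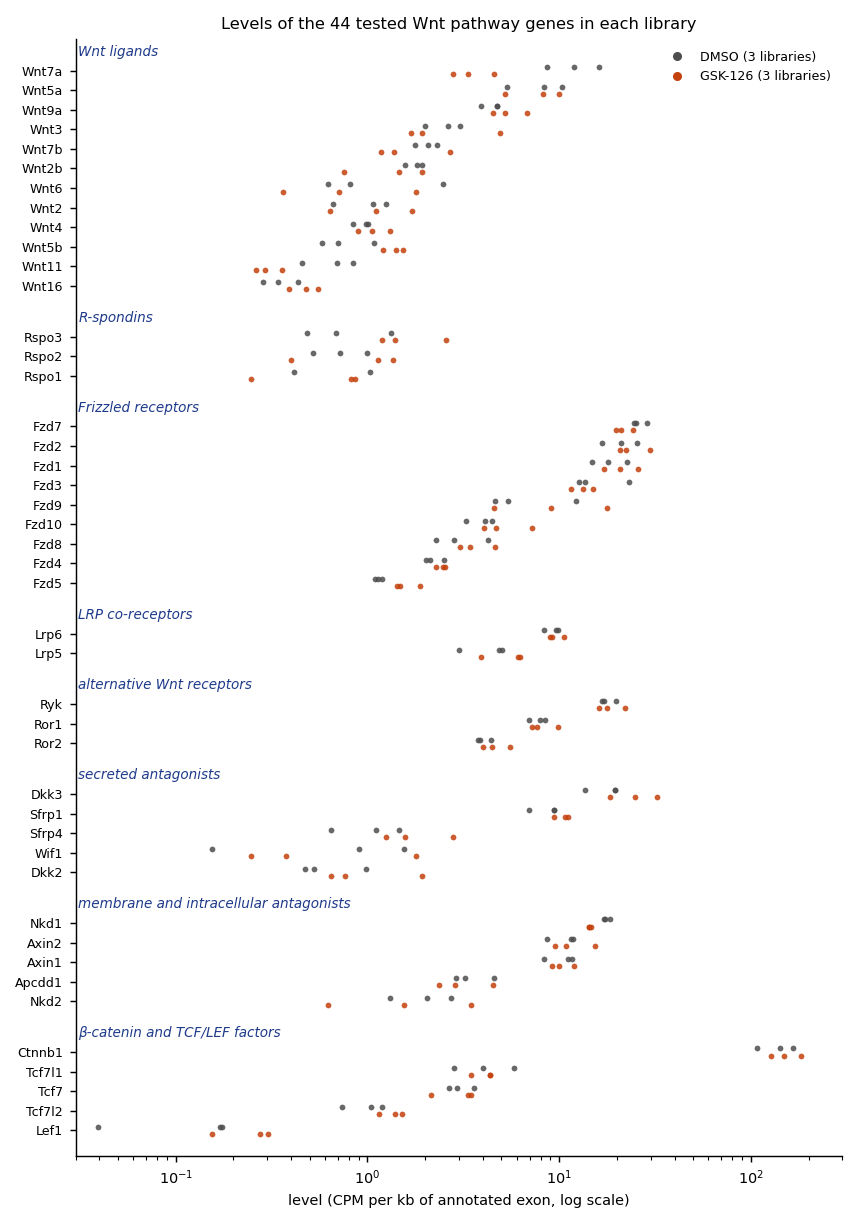
Level of each of the 44 tested Wnt genes in each library, in CPM per kilobase of exon on a log axis, grouped by role and ordered by the DMSO mean; grey points are the 3 DMSO libraries and orange points the 3 GSK-126 libraries. Ctnnb1 stands highest, Wnt7a is the ligand whose orange points all lie left of the grey ones by the widest margin, and Rspo1 in DMSO replicate 2, at a count of 0, has no point.

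In the paired fit, which takes the replicate number as a block, 2 of the 44 genes passed an adjusted p of 0.05 (edgeR quasi-likelihood test, Benjamini-Hochberg adjustment over all 16685 genes). The ligand Wnt7a fell and the secreted protein Dkk3 rose. That is a share of 4.55%, against 3.61% of all genes tested (2.23% higher and 1.38% lower). The fit with treatment as the only term called 0 of the 44 and 0 (0%) of all genes, with 996 (5.97%) of all genes and 3 of the 44 at an unadjusted p under 0.05 and a smallest adjusted p of 0.244 over all genes. The edgeR calls below therefore hold only with libraries compared within replicate numbers, and of the Wnt genes only Wnt7a was also called by DESeq2 without the block (adjusted p = 2.51e-05). In bulk RNA, fewer cells of a type and less RNA per cell cannot be told apart.

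Among the 44 genes the log2 fold change was positive for 30 and negative for 14, with a median of 0.16 beside -0.00 over all genes tested. It was above 0 in 3 of 3 pairs for 17 genes, where 19.6% of all genes were, and below 0 in 3 of 3 pairs for 6, where 19.2% were. The groups did not overlap for 6 genes, where 10.8% of all genes had groups apart. GSK-126 libraries lay above DMSO libraries for Fzd5 and Wnt5b (5.40% of all genes), and below them for Wnt7a, Wnt11, Nkd1 and Fzd7 (5.42% of all genes).

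**Figure D2:**
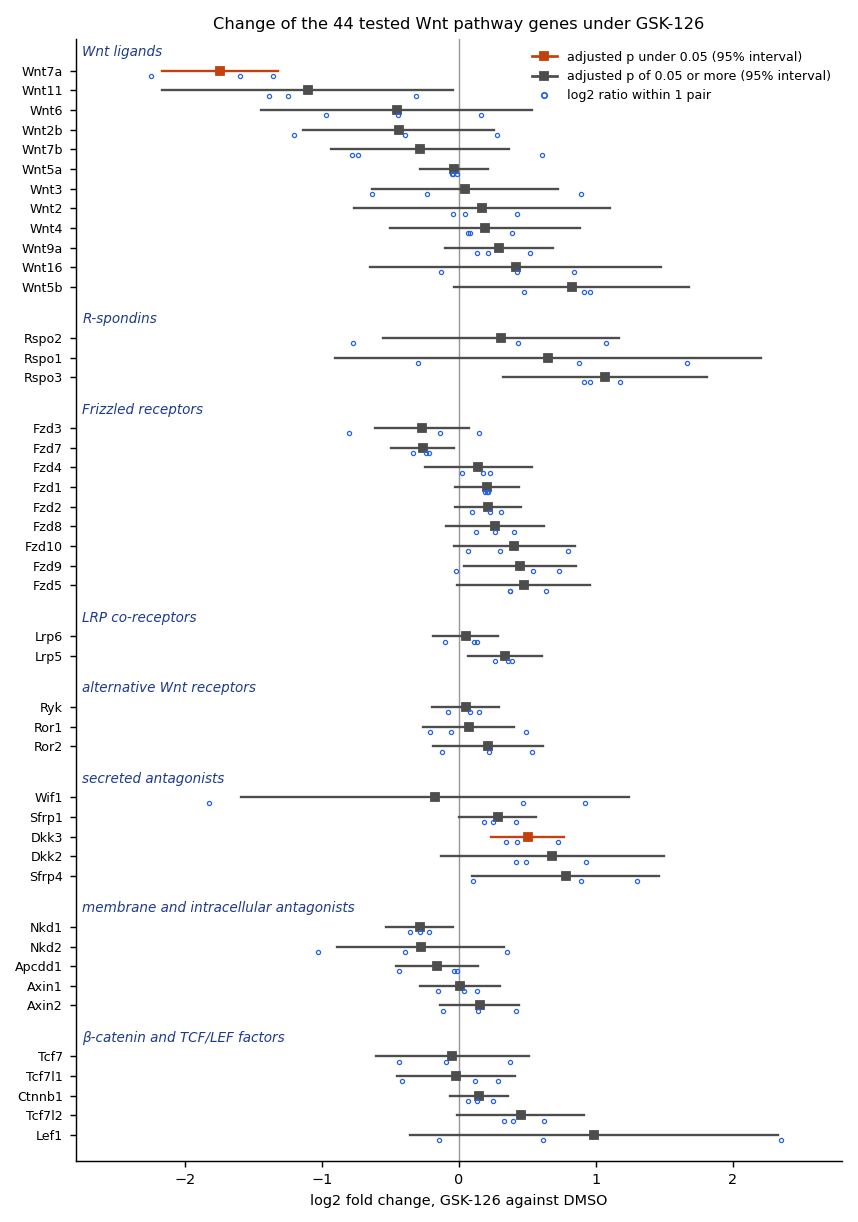
Change of the 44 tested Wnt genes, as the log2 fold change of GSK-126 against DMSO from the paired fit (squares) with its 95% interval (lines) and the log2 ratio within each of the 3 pairs of libraries (open circles), grouped by role. Orange marks the 2 genes past an adjusted p of 0.05, Wnt7a at -1.75 and Dkk3 at 0.50.

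Wnt7a (chromosome 6, 91363981 to 91411363, minus strand, GRCm38) was the gene with the largest difference of the set, and the study had singled it out as a late gene of granule neurons for RT-qPCR. It had 328, 410 and 232 counts in DMSO replicates 1, 2 and 3 and 175, 88 and 78 counts in the GSK-126 replicates. In CPM these were 37.7, 51.1 and 27.3 against 14.5, 10.6 and 8.86. Every GSK-126 library lay below every DMSO library, and the log2 ratios within pairs were -1.36, -2.25 and -1.60. The fit gave a log2 fold change of -1.75 (± 0.194 SE, adjusted p in edgeR 0.00124), a level of 29.8% of DMSO, and Wnt7a ranked 20 of 16685 genes by p. Without the block the log2 fold change was -1.77 with an adjusted p of 0.469, although it still ranked 5 of 16685 genes. The call held in the paired fit when any 1 replicate number was left out, with log2 fold changes from -1.96 to -1.47.

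The summed level of the granule neuron markers was lower in the same 3 pairs as Wnt7a, with 8 of the 10 log2 fold changes negative and 2 positive. Per 1000 summed CPM of the 10 granule neuron markers, Wnt7a stood at 9.33, 8.42 and 6.09 CPM with DMSO and at 5.01, 2.33 and 2.68 CPM with GSK-126. The ratio was thus also lower in 3 of 3 pairs and the groups did not overlap. Most of that sum came from Zic1, Cbln1, Neurod1 and Zic2, so the ratio mainly sets Wnt7a against these genes. Their log2 fold changes were -0.37, -0.53, -0.57 and -0.27, each lower in 3 of 3 pairs. Other markers of the 10 fell more. Slc17a7, a vesicular glutamate transporter, had -2.16, further from 0 than Wnt7a. Gabra6, a GABA-A receptor subunit of mature granule neurons, had -1.42. The positive values were 0.45 for Grin2b, an NMDA receptor subunit, and 0.04 for Pax6, a transcription factor, and neither passed the test. The summed markers of cerebellar GABAergic neurons were also lower in 3 of 3 pairs, at 260 to 385 CPM with DMSO and 234 to 291 CPM with GSK-126. Of these 10 markers 8 had a negative log2 fold change and 2 a positive one. The part of granule neuron number or maturity, or of GABAergic neurons, in the Wnt7a value was not tested.

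In DMSO, Wnt7a accounted for 29.3%, 44.6% and 26.1% of the summed level of all 19 Wnt ligands per kilobase of exon. With GSK-126 its share was 13.2%, 14.9% and 9.91%, below the share in each DMSO library. Wnt5a held 25.4%, 14.9% and 25.4% with DMSO and 28.6%, 23.4% and 29.4% with GSK-126, so that it had the larger share in every GSK-126 library. Wnt9a, the ligand next in level, went from a mean of 12.3% ± 1.87 to 19.8% ± 4.66 (SD, n = 3 each). Shares of a sum rise for other ligands where Wnt7a falls. The log2 fold change of Wnt9a itself was 0.29 (adjusted p in edgeR 0.463), with overlapping groups. The summed ligand level was 40.6, 36.2 and 33.0 CPM per kilobase in the DMSO libraries against 34.8, 22.3 and 28.2 in the GSK-126 libraries, lower in 3 of 3 pairs with overlapping ranges. The order of the leading ligands depends on the length scale, because Wnt5a has the longer exons. On CPM without length scaling Wnt5a already led with DMSO, at 39.1% against 24.7% for Wnt7a, and with GSK-126 the means were 46.1% and 8.78%.

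**Figure D3:**
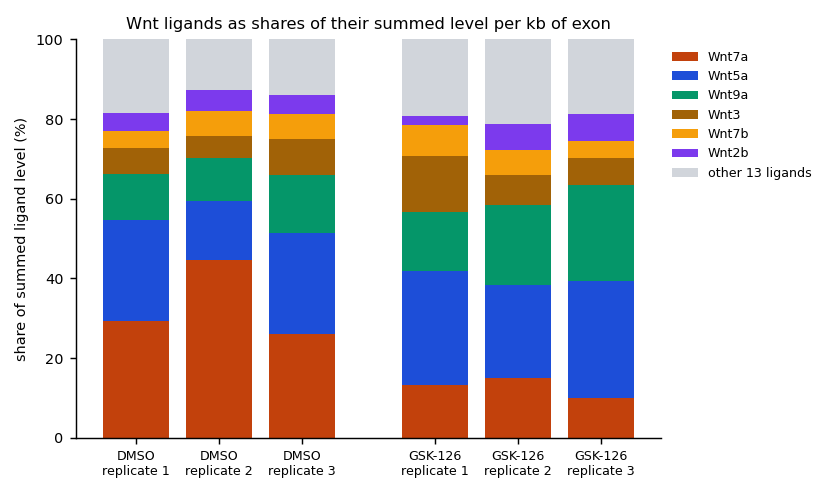
Share of each Wnt ligand in the summed level of the 19 ligands per kilobase of exon, as percent, 1 bar per library. The Wnt7a segment at the base shrinks from between 26.1% and 44.6% with DMSO to between 9.91% and 14.9% with GSK-126.

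The promoters of 2 ligands are shown because Wnt7a carries the largest difference and because Wnt5b is the ligand on the study's list of promoters that lost H3K27me3 under GSK-126. Each run covers the 250 bases before the RefSeq start on GRCm38.p6, read along the gene from 5′ to 3′, at chr6:91411354-91411603 for Wnt7a and at chr6:119544348-119544597 for the outermost start of Wnt5b, both on the minus strand. Capitals mark CpG.
Wnt7a: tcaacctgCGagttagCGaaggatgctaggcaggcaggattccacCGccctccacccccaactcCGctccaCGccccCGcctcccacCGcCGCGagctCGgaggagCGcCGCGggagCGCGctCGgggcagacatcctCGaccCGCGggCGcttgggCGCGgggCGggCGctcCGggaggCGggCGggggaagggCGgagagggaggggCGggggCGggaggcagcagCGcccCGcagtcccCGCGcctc
Wnt5b: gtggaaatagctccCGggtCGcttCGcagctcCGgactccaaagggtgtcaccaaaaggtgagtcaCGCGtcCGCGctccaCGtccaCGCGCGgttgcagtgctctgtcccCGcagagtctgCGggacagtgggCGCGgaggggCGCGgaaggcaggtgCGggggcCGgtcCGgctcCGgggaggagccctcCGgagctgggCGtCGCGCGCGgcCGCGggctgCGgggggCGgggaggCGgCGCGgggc
These 250 bases held 34 CpG at a GC content of 77.6% in Wnt7a and 35 CpG at 75.2% in Wnt5b, with a CpG count of 0.905 and 1.024 times that given by base composition. The 2 inner starts of Wnt5b were poorer in CpG, at 0.314 and 0.194 times that count over 300 bases. The study's list was used for its gene names alone, so which Wnt5b start lost H3K27me3 is not known here. Promoters rich in CpG were common in the set. For 39 of the 58 genes the RefSeq table held 48 promoters of 300 bases (250 before to 50 after the start), with a median GC content of 67.5% and a median observed over expected CpG of 0.782, beside 56.3% and 0.567 for 21262 promoters of protein-coding genes. The TCF/LEF core CTTTGA, sought on both strands, lay in 6 of the 48 promoters (12.5%) and in 14.4% of those of protein-coding genes. It was not in the 300-base window of Wnt7a or of the outermost Wnt5b start, which says only that these letters are absent there. An inner Wnt5b start held it.

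None of the other 11 tested ligands was called, and they lay on both sides of 0. Wnt11, which signals without β-catenin in many settings, had 2.87, 3.49 and 1.89 CPM with DMSO and 1.08, 1.2 and 1.48 CPM with GSK-126. The groups did not overlap, but these were 10 to 28 counts per library, and the log2 fold change was -1.11 (± 0.486 SE, adjusted p in edgeR 0.283 with the block and 0.825 without). Of its exon bases 8.80% overlap a gene on the other strand, and whether counting used the strand is not known. Wnt5b, a paralog of Wnt5a, had 2.87, 1.87 and 1.53 CPM against 4.07, 3.72 and 3.18, again with groups apart, for a log2 fold change of 0.82 (± 0.392 SE, adjusted p in edgeR 0.326 with the block and 0.830 without).

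Wnt6 had 5.40, 1.37 and 1.77 CPM with DMSO and 3.91, 1.56 and 0.795 CPM with GSK-126. Replicate 1 was highest in both groups, which overlapped, and the log2 fold change was -0.46 (± 0.452 SE, adjusted p in edgeR 0.689 with the block and 0.935 without). Wnt5a, which acts mainly through ROR receptors, differed far more between replicate numbers than between treatments. It had 80.5, 42.0 and 65.5 CPM with DMSO and 77.7, 40.8 and 64.7 CPM with GSK-126, with a log2 fold change of -0.04 (95% interval -0.28 to 0.21). Wnt7b, the closest relative of Wnt7a, had no such pattern. It was higher with GSK-126 in replicate 1 (13.2 against 8.62 CPM) and lower in replicates 2 (6.73 against 11.3 CPM) and 3 (5.79 against 10.1 CPM).

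**Figure D4:**
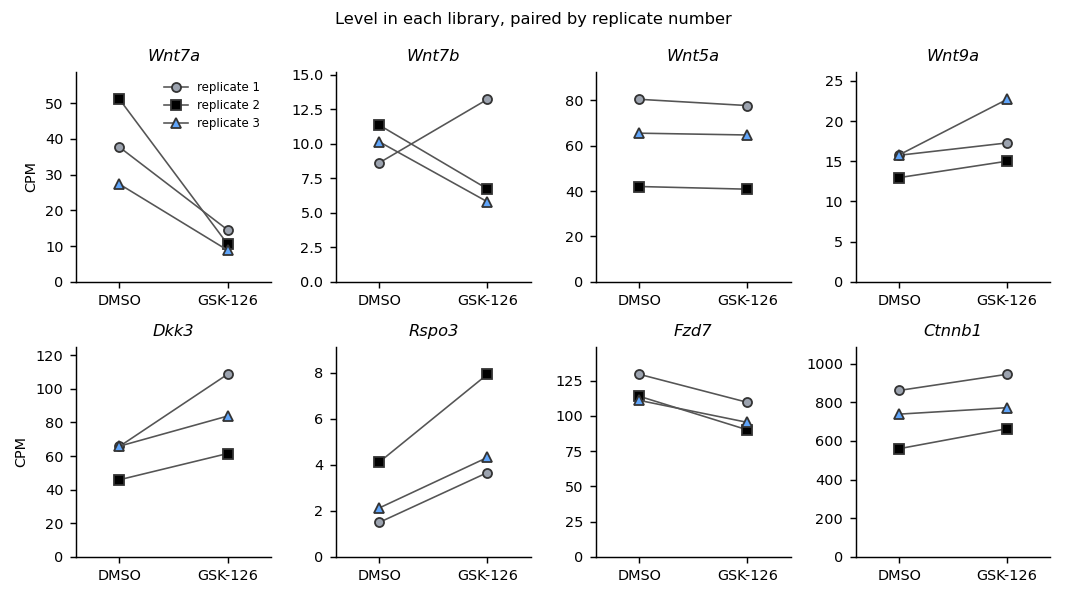
CPM of 8 Wnt genes in each library, with DMSO and GSK-126 libraries of the same replicate number joined by a line and each panel starting at 0. Wnt7a descends in all 3 pairs from between 27.3 and 51.1 CPM to between 8.86 and 14.5 CPM, Dkk3 and Rspo3 climb in all 3 pairs with overlapping groups, and the lines of Wnt5a are nearly level.

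The R-spondins amplify Wnt signals by sparing Frizzled receptors from turnover, and 3 of the 4 were tested. Rspo3 (chromosome 10, 29452416 to 29535867) had the largest positive log2 fold change of the set. Its level was 1.49, 4.11 and 2.12 CPM with DMSO and 3.66, 7.93 and 4.32 CPM with GSK-126, from 13 to 66 counts per library. Each GSK-126 library lay above its DMSO partner, but DMSO replicate 2 exceeded GSK-126 replicate 1, so the groups overlapped. Of its exon bases 13.1% overlap a gene on the other strand. The log2 fold change was 1.07 (± 0.340 SE, adjusted p in edgeR 0.127 with the block and 0.830 without), and it did not pass the test. Rspo2 (0.31) and Rspo1 (0.65) had wide intervals, and Rspo1 ranged from 0 to 20 counts.

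None of the 9 tested Frizzled receptors, the seven-pass receptors for Wnts, was called. Their log2 fold changes ran from -0.27 to 0.47, 7 of them positive. Fzd7, the highest in level, had 130, 114 and 111 CPM with DMSO and 110, 90.1 and 95.4 CPM with GSK-126. The groups did not overlap, by a margin of 111 to 110 CPM, and the log2 fold change was -0.27 (± 0.105 SE, adjusted p in edgeR 0.226 with the block and 0.830 without). Fzd5 was the reverse case, with 7.59, 7.85 and 8.25 CPM against 9.89, 10.2 and 12.9 CPM and a log2 fold change of 0.47 (± 0.220 SE, adjusted p in edgeR 0.316). Of its exon bases 17.8% overlap a gene on the other strand. Fzd1 and Fzd2 were close to each other in level and in log2 fold change (0.20 and 0.21).

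The LRP co-receptors and the alternative receptors were not called. Lrp6 had 134, 132 and 113 CPM with DMSO and 125, 145 and 123 CPM with GSK-126, for a log2 fold change of 0.05 (± 0.108 SE, adjusted p in edgeR 0.881 with the block and 0.966 without). Its 95% interval from -0.19 to 0.28 bounds the difference. Lrp5 was higher in 3 of 3 pairs, with 49.1, 29.2 and 47.4 CPM against 59.1, 38.2 and 60.8 CPM, a log2 fold change of 0.34 (SE 0.122) and an adjusted p of 0.187 by edgeR. Ryk, a receptor related to tyrosine kinases, had 89.9, 76.2 and 77.3 CPM against 99.5, 80.5 and 73.0 CPM and a log2 fold change of 0.05 (± 0.111 SE, adjusted p in edgeR 0.885 with the block and 0.965 without), and Ror1 and Ror2 had 0.07 and 0.21.

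Of the secreted antagonists 5 of 10 were tested, and Dkk3 rose. Dkk3 (chromosome 7, 112116017 to 112159057, minus strand) encodes a member of the Dickkopf family that, unlike Dkk1, is not an established ligand of LRP6. It had 65.7, 45.9 and 65.9 CPM with DMSO and 109, 61.5 and 83.8 CPM with GSK-126, from 368 to 1308 counts. Each GSK-126 library lay above its DMSO partner, with log2 ratios of 0.72, 0.42 and 0.35, but GSK-126 replicate 2 was below DMSO replicates 1 and 3, so the groups overlapped. The log2 fold change was 0.50 (± 0.121 SE, adjusted p in edgeR 0.0439) and 0.52 without the block (adjusted p = 0.830). This call is at the edge of the threshold. It was lost without replicate 1 (adjusted p = 0.0780), without replicate 2 (0.0914) and without replicate 3 (0.105), and on total-count scaling (0.0534).

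The summed level of fibroblast and meninges markers was higher in the same pairs as Dkk3, although Slc6a13 among them was lower in 3 of 3 pairs. Per 1000 summed CPM of those markers Dkk3 stood at 9.50, 6.64 and 7.38 CPM with DMSO and at 10.9, 6.89 and 8.45 CPM with GSK-126, and per 1000 summed CPM of astrocyte and Bergmann glia markers at 8.35, 16.9 and 13.5 against 13.4, 22.6 and 19.9 CPM. Both ratios were higher in 3 of 3 pairs with overlapping groups. Most of the fibroblast and meninges sum came from the collagens Col1a1, Col1a2 and Col3a1, so the first ratio mainly sets Dkk3 against these. The part of fibroblasts, meninges or glia in the Dkk3 value was not tested. Sfrp1, a decoy that binds Wnts, was also higher in 3 of 3 pairs, with 41.0, 30.5 and 40.9 CPM against 46.7, 40.8 and 48.7 CPM, a log2 fold change of 0.28 (SE 0.129) and an edgeR adjusted p of 0.302. Sfrp4 (0.78) and Dkk2 (0.68), at 1.75 to 11.7 CPM, had an adjusted p of 0.232 and 0.406, and Wif1, from 3 to 52 counts, had a 95% interval from -1.59 to 1.24.

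The membrane and intracellular antagonists Apcdd1, Axin1, Axin2, Nkd1 and Nkd2 were all tested and none was called. Nkd1, which binds Dishevelled and is a feedback inhibitor of the pathway, was the most even of the set across replicates. It had 79.2, 77.9 and 83.4 CPM with DMSO and 65.0, 66.9 and 65.1 CPM with GSK-126. The groups lay apart, with a log2 fold change of -0.29 (± 0.111 SE, adjusted p in edgeR 0.214 with the block and 0.825 without). Axin2, a feedback target and a common readout of β-catenin activity, showed no such separation. Its level was 63.2, 47.5 and 65.1 CPM against 84.6, 52.2 and 60.1 CPM, higher in 2 of 3 pairs, with a log2 fold change of 0.15 and a 95% interval from -0.14 to 0.44.

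β-catenin and the TCF/LEF factors were not called either. Ctnnb1 had 861, 559 and 738 CPM with DMSO and 945, 663 and 772 CPM with GSK-126, higher in 3 of 3 pairs with overlapping groups. Its log2 fold change was 0.15 (± 0.0969 SE, 95% interval -0.06 to 0.36, adjusted p in edgeR 0.498 with the block and 0.929 without), and 14.6% of its exon bases overlap a gene on the other strand. Lef1, a nuclear partner of β-catenin with 3 to 32 counts per library, had 0.345, 1.5 and 1.53 CPM against 2.66, 2.40 and 1.36 CPM and a log2 fold change of 0.99 (± 0.614 SE, adjusted p in edgeR 0.468 with the block and 0.845 without). Replicate 3 went the other way, and 13.7% of the exon bases of Lef1 overlap a gene on the other strand.

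The list of promoters with less H3K27me3 after GSK-126, published with the study and used here for its gene names alone, held 5 of the 58 genes, namely Sfrp2, Tcf7, Tcf7l1, Tcf7l2 and Wnt5b. The paper profiled H3K27me3 after 5 µM GSK-126 added on the first day. The labels give no dose or day for these RNA libraries, so the treatments may differ. Sfrp2, a secreted antagonist, was not tested and had 0.115, 1.12 and 0.707 CPM with DMSO and 0.582, 2.76 and 0.681 CPM with GSK-126. Tcf7 had 9.43, 7.73 and 6.95 CPM against 8.81, 5.65 and 9.09 CPM, and Tcf7l1, which mostly represses, had 22.8, 11.1 and 15.8 CPM against 17, 13.6 and 17.1 CPM. Their log2 fold changes were -0.05 and -0.02 (edgeR adjusted p = 0.959 and 0.977). Tcf7l2 had 10.5, 6.48 and 9.19 CPM against 13.2, 10.1 and 12.2 CPM, higher in 3 of 3 pairs, with a log2 fold change of 0.45 (edgeR adjusted p = 0.321). Of the 4 tested, 0 passed the test, where 11.1% of the 379 tested genes of the whole list did (39 higher and 3 lower) and 3.61% of all genes. With 4 genes, 0 calls do not set them apart from that share. Wnt5b was the one whose groups did not overlap.

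A second list from the study, of promoters that lose H3K27me3 late in the maturing cerebellum, held Fzd4, Lef1, Rspo3, Sfrp5, Wnt11, Wnt7a and Wnt7b. The 6 of these 7 that were tested spanned the whole range of the set, from -1.75 for Wnt7a and -1.11 for Wnt11 over -0.28 for Wnt7b and 0.14 for Fzd4 to 0.99 for Lef1 and 1.07 for Rspo3. Only Wnt7a of the 6 passed the test, where 9.15% of the 568 tested genes of the whole list did (24 higher and 28 lower). Over all genes the share was 3.61%. With 6 genes, this call does not set them apart from those shares. None of the 7 was on the list of promoters with less H3K27me3 after GSK-126.

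Other genes of the pathway, 101 in 6 lists by role, were read in the same fit, and 93 of them were tested. Of these, 5 rose and 4 fell (9.68%, beside 3.61% of all genes), while the fit without the block called 0 of them, with 10 at an unadjusted p under 0.05. Among the 9, 9 were called without replicate 1, 2 without replicate 2 and 4 without replicate 3, and Sulf2 and Dact1 were called in each of these 3 fits. The lists were chosen with results of these libraries known and their counts are a description.

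Of 17 tested genes for secretion and extracellular handling of Wnt proteins, 4 rose and 1 fell. The secretion steps went in opposite directions, and the other 3 that rose act on heparan sulfate outside the cell. Wls, the carrier that brings Wnts to the cell surface, had 381, 278 and 300 CPM with DMSO and 529, 401 and 441 CPM with GSK-126, every GSK-126 library above every DMSO library, for a log2 fold change of 0.52 (± 0.0975 SE, adjusted p in edgeR 0.0147). Porcn, the acyltransferase that attaches the lipid, fell, with a log2 fold change of -0.48 (± 0.108 SE, adjusted p in edgeR 0.0344), from 82.0, 113 and 78.3 CPM to 58.0, 82.0 and 56.4 CPM with overlapping groups. The sulfatases Sulf2 (0.68, edgeR adjusted p = 0.00706) and Sulf1 (0.44, edgeR adjusted p = 0.0329), which trim heparan sulfate, and the glypican Gpc4 (0.66, edgeR adjusted p = 0.0143), which carries it, rose. The summed markers of fibroblasts and meninges, of endothelial and mural cells, of microglia and of the oligodendrocyte lineage were each higher in 3 of 3 pairs, while single markers such as Slc6a13 and Cdh5 were lower in 3 of 3 pairs. The summed markers of granule neurons and of cerebellar GABAergic neurons were lower in the same 3 pairs, as were the genes of these lists that fell. The part of any of these cells in the values of the pathway genes was not tested.

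**Figure D5:**
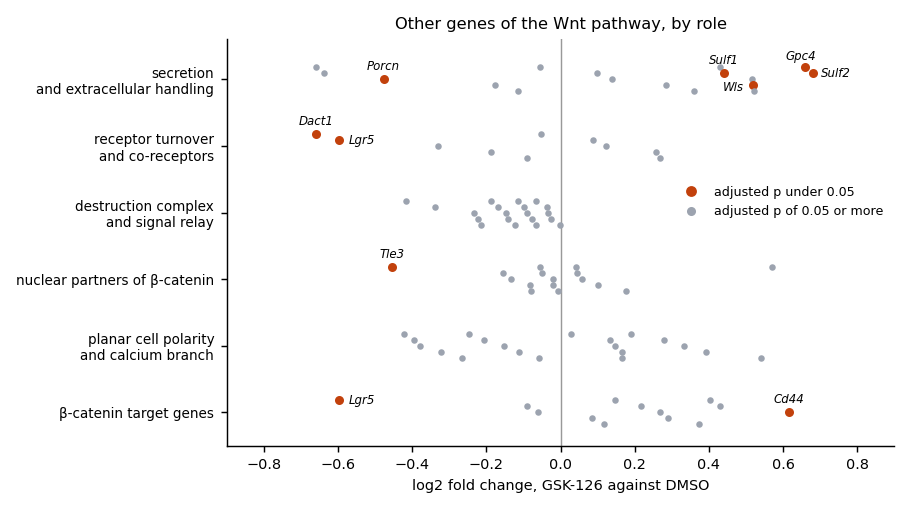
Log2 fold change of GSK-126 against DMSO for the tested genes of 6 lists of other Wnt pathway genes, 1 point per gene, with those past an adjusted p of 0.05 in orange and named; the vertical spread within a row only separates points. Wls, Sulf1, Sulf2, Gpc4 and Cd44 lie to the right and Dact1, Lgr5, Porcn and Tle3 to the left. The destruction complex genes lie between -0.42 and -0.00, none of them called.

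Of the 10 tested genes for receptor turnover and co-receptors, 2 fell. Dact1, an adaptor of Dishevelled, had a log2 fold change of -0.66 (± 0.113 SE, adjusted p in edgeR 0.0103), with 60.2, 133 and 84.0 CPM against 34.7, 85.6 and 57.0 CPM and overlapping groups. Lgr5, an R-spondin receptor, had 46.3, 55.7 and 50.1 CPM against 27.2, 43.6 and 31.3 CPM, with groups apart and a log2 fold change of -0.60 (± 0.136 SE, adjusted p in edgeR 0.0347). Lgr5 is also counted among the β-catenin targets, of which 13 were tested. There it fell and Cd44, a hyaluronan receptor also made by glia and fibroblasts, rose (0.62, edgeR adjusted p = 0.00848), while the targets Ccnd1 (0.40), Myc (0.12) and Sp5 (0.43) did not pass the test.

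The 20 genes of the destruction complex and the relay from the receptor held 0 calls. Their log2 fold changes were small, from -0.42 to -0.00 with a median of -0.12. They were negative for all 20 with TMM scaling and for 19 of 20 with the size factors of DESeq2. Over all genes tested, 8389 of 16685 were negative with TMM scaling. Apc, the scaffold of the complex, and Gsk3b, its kinase, had -0.03 and -0.07. Within pairs the signs were mixed, and Apc, Dvl2 and Gsk3a were each higher in 2 of 3. Without the block Dvl2 had 0.016. The planar cell polarity and calcium branch also held 0 calls among 20 tested genes, 10 on either side of 0. Of 16 nuclear partners of β-catenin, the corepressor Tle3 fell (-0.45 ± 0.104 SE, adjusted p in edgeR 0.0355).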

How the data were processed

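Poly(A) RNA of 6 CGN cultures was sequenced with paired-end reads. According to the labels and the methods, the authors trimmed reads with Trimmomatic 0.38, aligned them with STAR 2.7.2b to GRCm38 (mm10) and counted them over exons with HTSeq; the strand setting is not given in the sources used here. The deposited values are whole-number counts per gene symbol, without normalization or pooling. From these, CPM with TMM factors were computed here (from 39.1% to 41.6% of reads were assigned to genes; rows that name no gene, among them 44.8% to 46.7% of reads over no exon, were left out). The filter was CPM, before TMM scaling, of at least 1 in at least 3 of 6 libraries. The edgeR 4.0.16 quasi-likelihood test with treatment and replicate number as terms gave the log2 fold changes, with p-values adjusted over 16685 genes and a threshold of 0.05. The block was used because the comparison was set in advance to pair libraries by replicate number. A replicate in culture is neurons of pooled litters, but neither labels nor methods say that equal numbers share a pool. Deviations from the group means correlated by 0.34, 0.48 and 0.50 for the same number and by -0.39 to -0.01 for different numbers. These values come from the same libraries. Centring on means of 3 also lowers correlations between different numbers where those for equal numbers are positive. With the block, p-values rest on the spread of the differences within replicate numbers. Without it they rest on the spread between libraries of a group. The labels name no cultures, so both are spreads of these libraries. Ratios within pairs are log2 CPM with a prior count of 2. Intervals and floors (a floor is 3 counts, 0.249 to 0.372 CPM) cover counting error only where they come from counts of 1 library.

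Exon lengths and coordinates came from GENCODE M21 (GRCm38.p6), in which all 55341 symbols were found; 114 belong to several gene IDs, none of them a Wnt gene described here. Promoters came from RefSeq (GRCm38.p6). Named genes are the called ones, Wnt7a, the highest in level of each role, the 3 largest differences in either direction and those on the study's list of promoters that lost H3K27me3; of the other lists, the called genes, at most 4 each. Fzd5, Lrp5, Wnt5a, Wnt7b, Axin2, Sfrp1 and the other genes given with values beyond this rule were chosen after their values were seen. The members and lists were chosen with earlier results of these data known. Alternatives were the fit without the block, other filters and scalings, DESeq2 1.42.0, limma-voom (limma 3.58.1), and fits without 1 replicate number or 1 library.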

Additional observations from a re-analysis of the deposited data

How the results depend on the processing

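The calls depend on the pairing. With no replicate block, genes called higher and lower were 0 and 0 in place of 372 and 231 over all genes, 0 and 0 in place of 1 and 1 among the Wnt genes, and 0 and 0 in place of 5 and 4 among the other pathway genes, also when any 1 library was left out of that fit. DESeq2 with no replicate block called 46 higher and 12 lower over all genes, 0 higher among the Wnt genes, and 0 and 0 of the other pathway genes; it called Wnt7a. With no filter and the block, 708 genes were higher, 428 lower and 9 of the other pathway genes higher. Total-count scaling left 0 Wnt genes higher, since Dkk3 had an adjusted p of 0.0534. Without any 1 replicate number the counts over all genes ran from 175 to 464 higher and from 78 to 356 lower, both lowest without replicate 2; among the Wnt genes 0 were higher and 1 lower in each of these fits, and among the other pathway genes 1 to 6 were higher and 1 to 5 lower. Wnt7a stayed negative under every alternative run, from -1.99 to -1.47. The cause of these differences was not tested.

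Differences near 0 changed sign in fits with no block that left out 1 library: Lrp6 to -0.024 without DMSO replicate 3 and to -0.030 without GSK-126 replicate 2, Ryk to -0.079 without GSK-126 replicate 1, Ctnnb1 to -0.0084 without DMSO replicate 2 and to -0.0031 without GSK-126 replicate 1, and Wnt6 to 0.45 without DMSO replicate 1. With the longest transcript as length, DMSO levels became 199 for Ctnnb1, 26.4 for Ryk, 19.7 for Nkd1, 13.5 for Lrp6 and 0.308 for Lef1 (CPM per kilobase). The scaling alternatives moved the median log2 fold change over all genes by at most -0.0138 (total counts). Depth limits the genes under about 50 counts, among them Wnt11, Wnt5b, Wnt6, Rspo1, Wif1 and Lef1.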

Other observations

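For 16 of the 44 tested genes (36.4%) the 3 replicates stood in the same order of CPM in both groups, beside 29.7% of all 16685 genes tested. The highest DMSO library exceeded the lowest by 1.92 times for Wnt5a and by 1.54 times for Ctnnb1, and for both genes replicate 1 was highest and replicate 2 lowest with DMSO and with GSK-126. Astrocyte and Bergmann glia markers stood in the same order, at 7877, 2720 and 4880 summed CPM with DMSO and at 8131, 2716 and 4219 CPM with GSK-126 in replicates 1, 2 and 3. Rspo3 stood in another order in both groups, with replicate 2 highest and replicate 1 lowest. Fzd9, a receptor, had 27.9, 10.6 and 12.4 CPM with DMSO and 40.8, 10.4 and 20.7 CPM with GSK-126, with the largest value in replicate 1 of either group.

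Some Wnt genes that were not tested had counts in a few libraries. Wnt3a, which patterns the early nervous system, had 16 counts in DMSO replicate 1 and between 0 and 3 counts in the other libraries. Wnt1, Wnt10a and Wnt8a had at most 1 count in any library.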
